A study of Mus musculus with 6 samples.

Results

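Cd200, Enpep and Thy1 encode 3 surface antigens that were stained on cells from the limb skeleton of newborn mice, and their transcripts were compared between 2 sorted populations. The members were every probe set of the deposited array table whose annotation names 1 of these genes and no other. Each gene had 1 such probe set and 0 shared with another gene, so 3 of the 18193 genes with a probe set of their own are described, and no choice among probe sets was needed for them. Single-colour Affymetrix Mouse 430 2.0 arrays were hybridised with amplified RNA of 6 samples, 3 per population, from mice at postnatal day 3 with the genotype given as wild type. The fore and hind limbs of a litter were pooled, dissociated with collagenase and sorted. Samples titled as negative for CD45 (a leukocyte antigen), Ter119 (an erythroid antigen), Itgav (integrin alpha V) and Tie2 (the receptor of angiopoietins, which Tek encodes) are called Tie2-negative here. Those titled as negative for CD45 and Ter119, low for Itgav and positive for Tie2 are called Tie2-positive. The labels also speak of GFP-labelled mice without saying which samples that covers, and dashes that follow an antigen in the titles were taken as minus signs. CD200, 6C3 (an antibody name for the Enpep product) and Thy1 were in the staining mix, but the titles name no gate for them. No label says that the samples of a population come from separate litters, so the p-values cover only the spread of these samples, and that spread may be technical.

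CD200 is a membrane glycoprotein of the immunoglobulin superfamily that binds an inhibitory receptor on myeloid cells and is made by endothelial cells, neurons and some lymphocytes. Enpep, glutamyl aminopeptidase, also known as BP-1, 6C3 or Ly51, trims angiotensin II and is known both from early B-lineage cells and from stromal cells, among them pericytes. Thy1 (CD90) is a small glycolipid-anchored glycoprotein of T cells, neurons and fibroblasts that also marks part of the blood stem cell pool. In schemes that sort mouse skeletal progenitors the 3 antigens serve together to separate stem-like, stromal and bone-forming fractions.

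Cd200 was higher in the Tie2-positive than in the Tie2-negative population, Enpep was lower, and Thy1 differed by less. All values are log2 array values after quantile normalization, and differences are Tie2-positive minus Tie2-negative. Limma, fitted over all 18193 genes with Benjamini-Hochberg adjustment, called 2 of the 3 members at an adjusted p under 0.05. The background for that count is 7.37% of all genes, with 4.84% called higher and 2.53% called lower in the Tie2-positive population. At an unadjusted p under 0.05 in limma, 2368 of the 18193 genes were higher and 2833 lower, the background for list counts at that cut. The populations did not overlap for any of the 3 members, which held for 39.1% of all genes (15.2% higher and 23.9% lower in the Tie2-positive population). The median difference over all genes was -0.11.

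**Figure D1:**
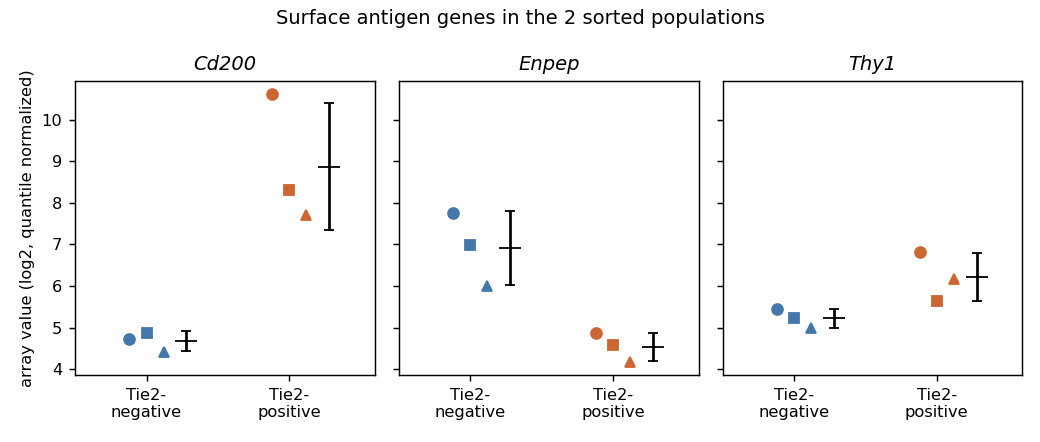
Log2 array values of Cd200, Enpep and Thy1 in the Tie2-negative (blue) and Tie2-positive (orange) samples, with replicate 1 as circle, replicate 2 as square and replicate 3 as triangle, and the mean ± SD of 3 arrays in black. Cd200 spans 4.42 to 4.88 in the Tie2-negative and 7.71 to 10.61 in the Tie2-positive samples, while the values of Thy1 are separated by a gap of 0.21.

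Cd200, measured by probe set 1448788_at, had values of 4.72, 4.88 and 4.42 in Tie2-negative replicates 1, 2 and 3. In Tie2-positive replicates 1, 2 and 3 the values were 10.61, 8.30 and 7.71. All Tie2-positive samples thus lay above all Tie2-negative ones, with a gap of 2.83, and replicate 1 stood highest among them. The means were 8.87 ± 1.53 (SD, n = 3) and 4.67 ± 0.24 (SD, n = 3), a difference of 4.20 ± 0.70 (SE; 95% interval 2.53 to 5.87), or 18.4-fold in array values. Cd200 rose at a limma adjusted p of 0.0220. A larger positive difference was found for 0.517% of genes. The call was lost without Tie2-positive replicate 2 (limma adjusted p = 0.0535) and without Tie2-negative replicate 1, 2 or 3 (0.101, 0.0935 and 0.0770), while the difference ran from 3.33 to 4.78 over the fits that left out 1 array.

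Enpep, measured by probe set 1448649_at, had values of 7.76, 6.99 and 6.00 in Tie2-negative replicates 1, 2 and 3. In Tie2-positive replicates 1, 2 and 3 they were 4.86, 4.57 and 4.17. Every Tie2-negative sample lay above every Tie2-positive one, with a gap of 1.14, and here the Tie2-negative samples were the more spread. The Tie2-positive mean was 4.53 ± 0.35 and the Tie2-negative mean 6.92 ± 0.88 (SD, n = 3 each), a difference of -2.38 ± 0.44 (SE; 95% interval -3.42 to -1.34), which makes the Tie2-negative array values 5.21-fold higher. Enpep fell at a limma adjusted p of 0.0281, and 0.753% of genes had a more negative difference. The call was lost without Tie2-positive replicate 2 or 3 (limma adjusted p = 0.0800 and 0.0556) and without Tie2-negative replicate 1 or 2 (0.0857 and 0.109). Without single arrays the difference ran from -2.84 to -1.96.

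Thy1, measured by probe set 1423135_at, had values of 5.44, 5.24 and 4.99 in Tie2-negative replicates 1, 2 and 3. The Tie2-positive values were 6.82, 5.65 and 6.17 in replicates 1, 2 and 3. The samples did not overlap, but Tie2-positive replicate 2 was only 0.21 above the highest Tie2-negative sample. The difference of 0.99 ± 0.31 (SE, n = 3 per population; 95% interval 0.27 to 1.72) did not pass in limma (adjusted p = 0.0959, unadjusted p = 0.0146). It ran from 0.69 to 1.28 over the 6 fits that left out 1 array and passed in none of them. With only Tie2-positive replicate 1 set against the Tie2-negative samples, a fit that assumes the lone array to vary like the other population, Thy1 was higher by 1.6 (limma adjusted p = 0.00721). The deposited table carries no detection calls, so whether the lower population lay above background was not analysed for any of the 3 genes. The mean levels of Enpep and Thy1 were in the lowest 40% of genes.

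The sequences before the start sites of Cd200 and Enpep, the members that passed the test in opposite directions, are shown for orientation. They are the 250 bases upstream of a RefSeq transcript start (GRCm38.p6), 5′ to 3′ on the minus strand, where both genes lie, at chr16:45409054-45409303 for Cd200 and chr3:129332750-129332999 for Enpep. Capitals mark matches, on either strand, to 4 short motifs, with no overlap between matches. The letters GGGCGG were searched for the GC box and those of CCAAT for the box named after them. For the TATA box the search used TATANA, where N is any base, and for the core of the ETS family it used CCGGAA.
Cd200: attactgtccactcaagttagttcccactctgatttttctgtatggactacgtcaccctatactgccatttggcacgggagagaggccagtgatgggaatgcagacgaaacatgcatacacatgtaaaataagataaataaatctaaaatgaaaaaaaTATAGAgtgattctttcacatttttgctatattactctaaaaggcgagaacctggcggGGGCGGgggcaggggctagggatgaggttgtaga
Enpep: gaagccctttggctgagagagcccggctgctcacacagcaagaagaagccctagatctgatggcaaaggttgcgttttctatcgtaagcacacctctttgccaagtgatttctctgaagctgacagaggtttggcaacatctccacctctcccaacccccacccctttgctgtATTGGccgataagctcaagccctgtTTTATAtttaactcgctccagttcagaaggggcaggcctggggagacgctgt
The Cd200 window held 1 GC box, beginning 34 bases before the start, and 1 TATA match beginning 92 bases before it. The Enpep window held 1 CCAAT box and 1 TATA match, both on the opposite strand, beginning 77 and 52 bases before the start. Of 32851 windows of this length, 32.7% held a GC box, 33.8% a CCAAT box and 22.6% a TATA match. The ETS letters, found in 12% of windows, were in neither sequence. The share of G and C was 42.4% in Cd200 and 52.4% in Enpep, against a median of 52.4%. These matches are descriptions of letters and not binding sites.

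The titles were checked against the transcripts. Tek ran from 4.79 to 4.90 in the Tie2-negative and from 9.80 to 12.06 in the Tie2-positive samples, and Itgav from 7.06 to 7.24 and from 8.60 to 9.37. Both defined the gates, and their differences of 6.08 ± 0.53 and 1.76 ± 0.26 (SE, n = 3 per population) check the labels. The rise of Itgav was 0.37, without a call, over the mean of its 5 probe sets. Ptprc, which encodes CD45, was at 9.52, 10.41 and 9.42 in the Tie2-negative samples and at 4.86, 9.95 and 11.22 in Tie2-positive replicates 1, 2 and 3, although both titles exclude CD45. Eng, the stained antigen CD105, differed by 1.46 ± 0.46 (SE) and did not pass (limma adjusted p = 0.104). Correlations between arrays over all genes were 0.969 to 0.983 within the Tie2-negative and 0.898 to 0.980 within the Tie2-positive population. When Tie2-negative replicate 1 or 2 was left out, limma called 0 genes in all (4012 and 3978 at an unadjusted p under 0.05), so each list count below is also 0 in those fits.

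Cd200 had a profile over the arrays close to that of endothelial genes. Likeness was measured as the root-mean-square difference, in log2 units over the 6 arrays, between profiles that were each centred on their mean. The closest genes were Tie1, an endothelial receptor kinase (0.18), the protocadherin gene Pcdh17 (0.22), She (0.25), the junction gene F11r (0.25) and Afdn, which encodes an adaptor of cell junctions (0.26). Tie1 had values of 4.69, 4.64 and 4.28 in the Tie2-negative and of 10.38, 8.54 and 7.82 in the Tie2-positive samples. In both genes Tie2-positive replicate 1 was highest and replicate 3 lowest of that population. The median distance of Cd200 to 14 endothelial genes was 0.63, against 2.35 to all genes. Such distances include the difference between populations, since all 6 arrays enter them, and depend on its size, since profiles were not scaled. All 14 endothelial genes had their highest Tie2-positive value in replicate 1, as Cd200 did. This was not particular to them. It also held for 8 of 9 bone and cartilage genes, 9 of 15 mesenchymal stroma genes, Enpep and Thy1.

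The endothelial genes themselves rose in the Tie2-positive population, with 9 of 14 called higher and 0 lower, and a median difference of 4.18 against -0.11 over all genes. The shares called over all genes were 4.84% higher and 2.53% lower. Cdh5, the cadherin of endothelial junctions, was higher by 5.58 ± 0.61 (SE, n = 3 per population). Cldn5, a claudin of tight junctions, was higher by 5.31 ± 0.75 and Emcn, which encodes a sialomucin, by 5.05 ± 0.85. The count was 4 without Tie2-positive replicate 2 and 2 without Tie2-negative replicate 3. Among 10 blood stem and progenitor genes, 4 were called higher and 0 lower, among them Procr (4.14 ± 0.72), Cd34 (5.01 ± 1.02) and Fgd5 (3.92 ± 0.55), which endothelial cells also express. That count was 2 without Tie2-positive replicate 2 and 0 without Tie2-negative replicate 3. Procr lay at a distance of 0.38 from Cd200. In arrays of sorted bulk cells, more cells of a type and more RNA per cell cannot be told apart.

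Genes of the CD200 receptor family and of proteins that signal from them were few, so their counts say little. Of 7 measured genes 0 were called in either direction, where 7.37% of all genes were called. At an unadjusted p under 0.05 in limma, 1 was higher and 1 lower, against 2368 and 2833 of all 18193 genes. The median difference was 0.80. Inpp5d, an inositol phosphatase, was at 10.15 ± 0.56 (SD, n = 3) in the Tie2-negative and 9.5 ± 0.50 in the Tie2-positive samples. Rasa1, a Ras GTPase activator recruited below the receptor, was at 7.97 ± 0.26 and 9.17 ± 0.67 (limma adjusted p = 0.0956). Further genes of the receptor family were named after their values were seen, and whether Cd200r3 and Cd200r4 bind CD200 was not tested. Cd200r1, the inhibitory receptor of myeloid cells, was at 5.98, 5.44 and 5.47 in the Tie2-negative and at 5.28, 5.97 and 6.54 in Tie2-positive replicates 1, 2 and 3. Cd200r3 ran from 3.20 to 3.46 in the Tie2-negative samples and was at 3.35, 4.52 and 6.88 in Tie2-positive replicates 1, 2 and 3. Cd200r4 was at 3.27, 4.52 and 5.80 in the latter.

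All 3 genes of the receptor family were thus highest in Tie2-positive replicate 3 and lowest in replicate 1, the reverse of Cd200. The median of 12 neutrophil and monocyte genes went the same way, with 6.03, 11.47 and 13.40 in Tie2-positive replicates 1, 2 and 3 against 6.13, 7.52 and 8.06 in the Tie2-negative samples. All 12 had their highest Tie2-positive value in replicate 3. Their part in the receptor values was not tested. Of the 12 genes 0 were called (0 also at an unadjusted p under 0.05 in limma), where 7.37% of all genes were called. Ngp, a neutrophil granule gene, differed by 1.75 ± 2.02 (SE), and S100a8, a calcium-binding protein gene of neutrophils, by 2.37 ± 1.70. Tie2-positive replicates 1, 2 and 3 had medians of 6.78, 10.11 and 8.65 over 6 megakaryocyte genes, and no Tie2-negative sample was outside 6.22 to 6.41. In that list 1 gene was called higher, where 4.84% of all genes were. This was Pf4, a platelet chemokine gene (5.29 ± 0.79, SE). It did not pass without Tie2-negative replicate 3, and 4 megakaryocyte genes were called higher without Tie2-positive replicate 1. Without that array 10 neutrophil and monocyte genes and 3 genes of the receptor list were also called higher.

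**Figure D2:**
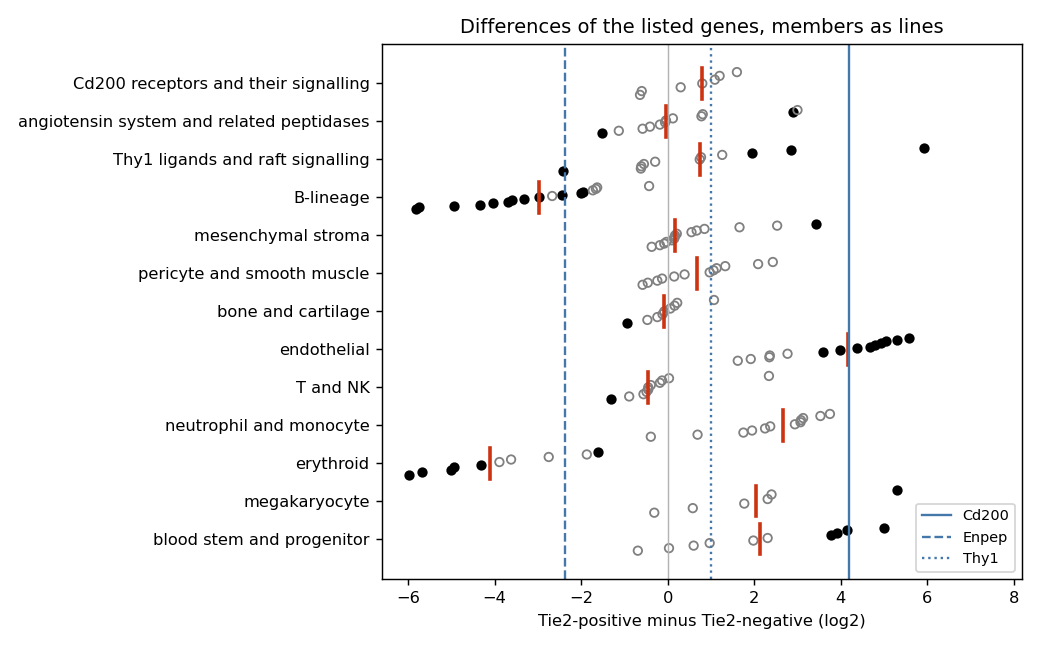
Differences (Tie2-positive minus Tie2-negative, log2) of the genes of 13 lists, with genes called by limma as filled and others as open points, list medians as red bars and the 3 members as vertical lines. Cd200, at 4.20, lies beside the endothelial median of 4.18, and Enpep, at -2.38, lies within the B-lineage range of -5.81 to -0.43.

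Enpep is an antigen of early B-lineage cells and of stroma, so both sets of markers were set beside it. B-lineage genes were lower in the Tie2-positive population, where limma called 12 of the 17 measured lower and 0 higher, with a median difference of -2.98. Limma called 2.53% of all genes lower. Rag1, the recombinase of antigen receptor genes, had values of 9.74, 10.15 and 7.66 in the Tie2-negative and of 3.23, 3.57 and 3.32 in the Tie2-positive samples, a difference of -5.81 ± 0.61 (SE, n = 3 per population). Pou2af1, a B-cell coactivator, fell by 5.74 ± 0.65 (SE) and Vpreb1, part of the surrogate light chain of the pre-B-cell receptor, fell by 4.95 ± 0.79. For 15 of the 17 genes the populations did not overlap, all lower in the Tie2-positive population, against 23.9% of all genes. The exceptions were Pax5, the B-lineage commitment factor, and Ebf1, a factor of B cells and stromal cells alike, both named after their values were seen. Ebf1 was at 8.97, 6.09 and 5.88 in Tie2-positive replicates 1, 2 and 3 against 7.60 to 9.61 in the Tie2-negative samples. The B-lineage count was 5 without Tie2-positive replicate 2.

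Of 15 mesenchymal stroma genes 1 was called higher and 0 lower, with a median difference of 0.17. These counts are near the shares over all genes, 4.84% higher and 2.53% lower. At an unadjusted p under 0.05, 2 were higher and 0 lower in limma, against 2368 and 2833 of all 18193 genes. Mmp2, a matrix metalloproteinase also made by endothelium, was the gene called (3.42 ± 0.46, SE). The mesenchymal count of higher genes was 4 without Tie2-positive replicate 1. Pdgfra, a receptor that marks mesenchymal cells, was at 5.16, 5.0 and 5.59 in the Tie2-negative and at 5.55, 5.27 and 5.38 in the Tie2-positive samples, which overlap. Lepr, a marker of adult marrow stroma, was at 5.67 to 5.87 and at 5.74 to 7.22. Both were named after their values were seen. The difference of Lepr was 0.55 in the probe set used and 1.89 when all its probe sets were averaged, without a call in either case.

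Pericyte and smooth muscle genes, the other stromal source of Enpep, gave 0 calls of 12 in either direction, where 7.37% of all genes were called. Their median difference was 0.68. At an unadjusted p under 0.05, 4 were higher and 1 lower in limma, against 2368 and 2833 of all 18193 genes. The count of higher pericyte genes was 2 without Tie2-positive replicate 1 and 2 without replicate 3. Acta2, smooth muscle actin, was at 7.84, 8.24 and 9.45 in the Tie2-negative and at 8.50, 9.72 and 10.49 in the Tie2-positive samples. With x_at and s_at probe sets left out, since they may match several transcripts, Acta2 was represented by another probe set and was lower by 0.90 (a difference of -0.90, limma adjusted p = 0.0133). Abcc9, a potassium channel subunit of pericytes, differed by 2.09 ± 0.71 (SE; limma adjusted p = 0.120) and by 3.89 over the mean of its probe sets (0.0351). Pdgfrb, the pericyte receptor for platelet-derived growth factor, was at 5.22 to 5.35 and at 5.53 to 5.84, and Cspg4 (NG2) at 6.88 to 7.22 and at 6.22 to 7.01; both were named after their values were seen. On the values as deposited another probe set represented Pdgfrb, with a difference of 2.23 in place of 0.39, and neither passed. Of 9 bone and cartilage genes 1 was called lower, where 2.53% of all genes were. This was Alpl, the tissue-nonspecific phosphatase of bone-forming cells (-0.93 ± 0.21, SE). It did not pass without Tie2-negative replicate 3, without Tie2-positive replicate 2 or 3, or when all probe sets were tested (limma adjusted p = 0.0549).

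**Figure D3:**
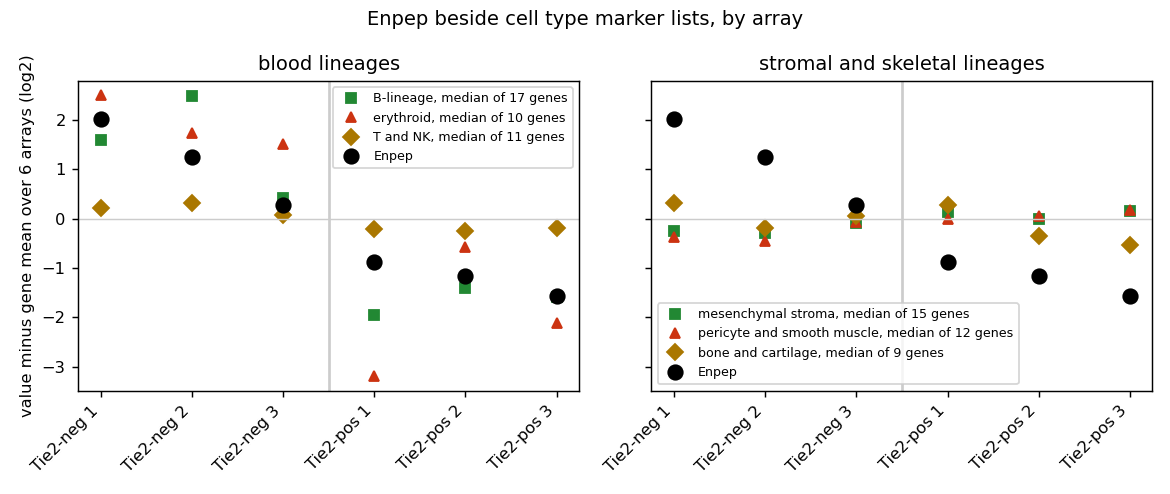
Enpep (black) and the medians of 6 marker lists by array, as log2 values minus each gene's mean over the 6 arrays, with blood lineages on the left and stromal and skeletal lineages on the right. Enpep runs from 2.03 in Tie2-negative replicate 1 to -1.56 in Tie2-positive replicate 3. The B-lineage median runs from 2.5 in Tie2-negative replicate 2 to -1.95 in Tie2-positive replicate 1. The mesenchymal median stays between -0.28 and 0.16.

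Within the Tie2-negative population Enpep and the B-lineage genes were highest in different arrays. Enpep was highest in replicate 1 (7.76), whereas all 17 B-lineage genes were highest in replicate 2 and lowest in replicate 3. Their median was 9.18, 10.12 and 7.83 in replicates 1, 2 and 3. Enpep shared its lowest Tie2-negative sample, replicate 3, with all 17. Of 10 erythroid genes 9 were highest in replicate 1, as Enpep was, and their median was 11.95, 10.29 and 9.98 although the titles exclude Ter119. In the Tie2-positive samples, where Enpep was highest in replicate 1, 9 of 10 erythroid genes were highest in replicate 2. Of the 17 B-lineage genes 2 were highest there in replicate 1, 9 in replicate 2 and 6 in replicate 3. Erythroid genes were lower in the Tie2-positive population, with 6 of 10 called lower (3 without Tie2-negative replicate 3), against 2.53% of all genes. None was called higher, and their median difference was -4.10. Epb42, a red-cell membrane skeleton gene, fell by 5.99 ± 0.57 (SE, n = 3 per population), Rhag by 5.67 ± 0.70 and Trim10 by 5.02 ± 0.76. The part of B-lineage or erythroid cells in the Enpep difference was not tested, and no population with stromal cells alone was compared.

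By the same measure of likeness, the genes closest to Enpep were Dnaja4, a co-chaperone (0.18), Fam53b (0.26), 1300017J02Rik (0.27), the ubiquitin ligase gene Rnf123 (0.29) and Grina (0.29), none of them on a list. Dnaja4 had values of 9.16, 8.22 and 7.65 in the Tie2-negative and of 6.09, 6.10 and 5.84 in the Tie2-positive samples. Each of the 5 was highest in Tie2-negative replicate 1 and lowest there in replicate 3. Among the B-lineage genes the closest was Cd79a, a chain of the B-cell receptor complex (0.41), with values of 8.31, 8.60 and 7.14 in the Tie2-negative and of 5.40, 5.65 and 5.64 in the Tie2-positive samples. The closest gene was Epor in the erythroid (0.60), Cd2 in the T and NK (0.69) and Alpl in the bone and cartilage list (0.89). It was Cspg4 in the pericyte (1.14) and Thbs2 in the mesenchymal list (1.27). Cd79a, Epor and Thbs2 were named after their values were seen. The median distance from Enpep was 1.0 to the B-lineage, 1.1 to the T and NK and 1.58 to the erythroid genes, against 1.29 to all genes. It was 1.28 to the bone and cartilage, 1.43 to the mesenchymal and 1.70 to the pericyte genes. All 6 arrays enter these distances, so they include the difference between populations. Profiles were centred but not scaled, so the size of a gene's difference counts as well as the order of its arrays. Erythroid genes, with a median difference of -4.10, fell further than Enpep, and their distance includes that excess.

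Of 12 measured genes of the angiotensin system and related peptidases, 1 was called higher and 1 lower, with a median difference of -0.05. The other 10 did not pass, 7.37% of all genes were called, and both counts were 0 without Tie2-positive replicate 2. Agtr1a, a receptor for angiotensin II, the substrate of Enpep, had values of 7.23, 6.77 and 6.62 in the Tie2-negative and of 5.43, 5.17 and 5.46 in the Tie2-positive samples. The groups did not overlap, and Agtr1a fell by 1.52 ± 0.21 (SE; limma adjusted p = 0.0143), though not without Tie2-positive replicate 2. Ece1, an endothelin-converting peptidase of endothelium, was higher by 2.89 ± 0.64 (SE; limma adjusted p = 0.0457). It did not pass over the mean of its probe sets, without the mean trend, or without Tie2-negative replicate 3 or Tie2-positive replicate 2.

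T-cell genes were set beside Thy1, which T cells carry. Of 11 measured T and NK genes 0 were called higher and 1 lower, with a median difference of -0.45, where 4.84% and 2.53% of all genes were called. At an unadjusted p under 0.05 in limma, 0 were higher and 5 lower, against 2368 and 2833 of all 18193 genes. The populations did not overlap for 6 of the 11, all lower in the Tie2-positive population, against 23.9% of all genes. The gene called was Cd2, an adhesion molecule of T and other lymphoid cells, which fell by 1.31 ± 0.25 (SE; not without Tie2-positive replicate 2 or 3). In fits without Tie2-positive replicate 1, 1 T and NK gene was called higher. The genes with profiles closest to Thy1 were Pik3ip1 (0.12), Tmem43 (0.14), Dennd5a (0.15), Mospd2 (0.16) and Trp53i13 (0.16), and limma called none of the 5 (adjusted p 0.0571 to 0.122; unadjusted p under 0.05 in all). Pik3ip1 had values of 7.17, 6.78 and 6.66 in the Tie2-negative and of 8.62, 7.57 and 7.94 in the Tie2-positive samples, and like Thy1 was highest in Tie2-positive replicate 1.

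Among genes of Thy1 ligands and of the membrane rafts it sits in, 3 of 11 were called higher and 1 lower, with a median difference of 0.74. The shares called over all genes were 4.84% and 2.53%. Cav1, the caveolin of endothelial caveolae, was at 6.51, 5.98 and 7.88 in the Tie2-negative and at 13.79, 12.09 and 12.27 in the Tie2-positive samples, a difference of 5.93 ± 0.62 (SE). Fyn was also called higher, by 1.95 ± 0.36 (SE; limma adjusted p = 0.0280), and was named after its values were seen. Itgb3, an integrin chain that binds Thy1 together with alpha V, was higher by 2.84 ± 0.65 (SE; limma adjusted p = 0.0482), and Sdc4, a syndecan that engages Thy1 with it, was lower, with a difference of -2.43 ± 0.56 (adjusted p = 0.0489). Both lay near the threshold: Itgb3 passed in 5 and Sdc4 in 3 of 9 alternatives that kept all arrays in an unpaired fit. Itgb3 was at 6.75, 9.45 and 8.68 in Tie2-positive replicates 1, 2 and 3. It was thus highest in replicate 2, as the megakaryocyte median was, whereas Thy1 was highest in replicate 1. The source of Itgb3 was not tested. The count of higher genes was 1 without Tie2-positive replicate 2 and 1 without Tie2-negative replicate 3, and Sdc4 did not pass when Tie2-positive replicate 1, 2 or 3 was left out.

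**Figure D4:**
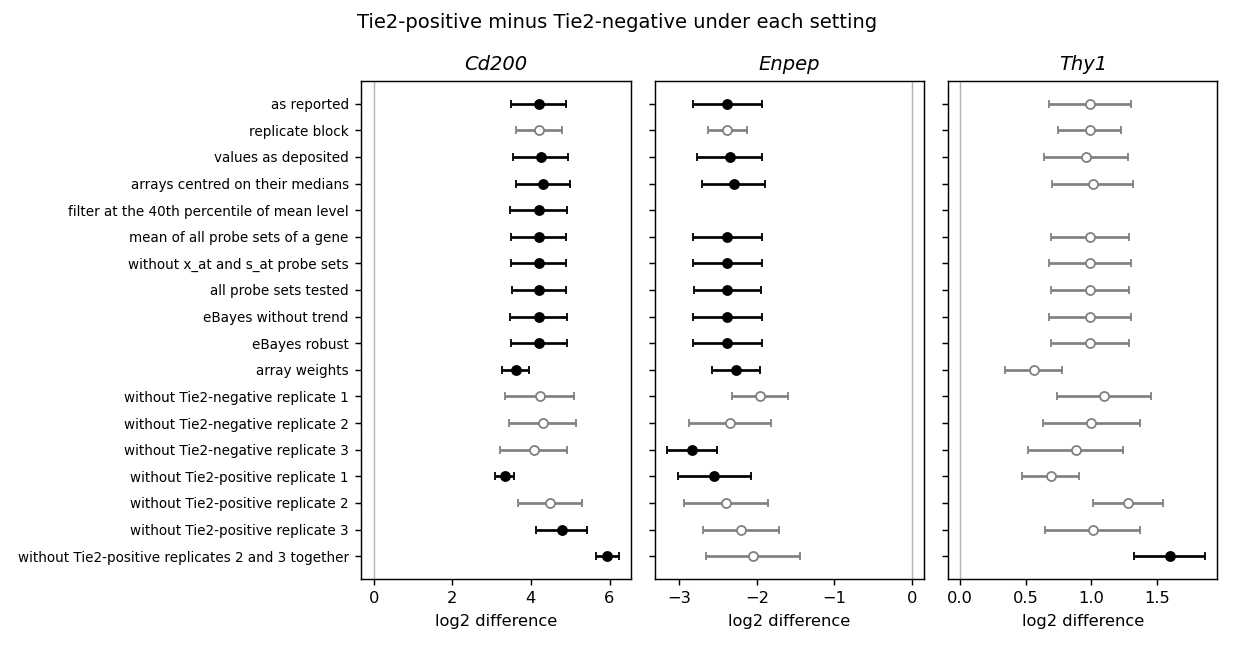
Difference between populations (log2, with SE) of Cd200, Enpep and Thy1 under each setting, filled where limma's adjusted p was under 0.05 and open where it was not. The differences lie between 3.33 and 5.94 for Cd200, between -2.84 and -1.96 for Enpep and between 0.56 and 1.6 for Thy1, and no setting turned a direction.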

How the data were processed

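The deposited table holds log2 values per probe set (range 2.56 to 14.78); that the scale is log2 was read from the values, and the method by which the authors summarised and normalized them was not given in the sources used. Per the labels' protocols, RNA was amplified in 2 rounds and arrays were scanned with GCOS 1.1.1. Of 45101 probe sets, 64 controls were left out, and 34945 of the rest named 1 gene in the platform annotation. Each of 18193 genes was represented by its probe set with the highest mean. The arrays' 75th percentiles differed by up to 0.26, so values were quantile normalized. Populations were compared in limma 3.58.1 under R 4.3.3 (lmFit, eBayes with a mean trend, two-sided, Benjamini-Hochberg), without covariates. The procedure was also run on simulated data with independent noise for each gene and the same spread in both populations. Those data lack differences shared across an array, so they do not show how the procedure behaves on these arrays. For arrays their number limits the precision. The 14 lists hold 170 entries, of which 153 were measured. Genes named were all stained antigens, up to 3 called genes per list with the largest difference (or the 2 with the highest mean where none was called), and the 5 genes closest to each member with a highest value above 6.55, the median over all genes and arrays. Members and lists were chosen with earlier results of these data known. Alternatives were the deposited or median-centred values, a filter on low levels, the mean of probe sets, fewer or all probe sets, other eBayes settings, array weights, a replicate block, and leaving out arrays.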

Additional observations from a re-analysis of the deposited data

How the results depend on the processing

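Cd200, Enpep and Thy1 kept their direction in all 17, 16 and 16 alternatives run, a direction that values without overlap fix where arrays are left out, and Cd200 and Enpep passed limma's threshold in 12 and 10 of them. A filter on genes under the 40th percentile gave no value for Enpep and Thy1, which it removed. No label pairs the samples by replicate number. Deviations of same-numbered arrays correlated at 0.14, 0.006 and 0.185, and those of differently numbered arrays at -0.161 to 0.054. With 3 arrays per population these values cannot decide whether the samples are paired. When the replicate block was added, limma called 0 genes (5080 at an unadjusted p under 0.05), and Cd200 (4.20, adjusted p = 0.0569) and Enpep (-2.38, 0.0528) did not pass. Leaving out 1 array gave 3.33 to 4.78 for Cd200, -2.84 to -1.96 for Enpep and 0.69 to 1.28 for Thy1, with adjusted p up to 0.101, 0.109 and 0.218, and between 0 and 2157 genes called in place of 1341. Without Tie2-positive replicates 2 and 3 together, Enpep (-2.05, adjusted p = 0.0616) did not pass, Thy1 (1.6) did, and 3653 genes were called. All probe sets tested gave 2256 calls and array weights 4634; array weights left Thy1 at 0.56. Directions turned for genes that had not passed: without Tie2-positive replicates 2 and 3 Acta2 was at -0.01, Cd200r1 at -0.35, Cd200r4 at -0.17, Ebf1 at 0.37, Ngp at -3.07 and S100a8 at -1.77; without single Tie2-positive replicates Cd200r1 ran from -0.01 to 0.62; without Tie2-positive replicate 1 Ptprc was at 0.80; over the mean of probe sets Pdgfra was at -0.03; without shared probe sets Acta2 was at -0.90. The cause was not tested.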
